A study of Mus musculus with 22 samples.

Results

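Skeletal muscle of mice carrying a mutation in Sgms1 was compared with wild-type muscle on 7 of the 22 arrays of the series, the libraries labelled as muscle. The mutant group held 4 mice labelled as Sgms1 mutants, of the strain C57BL/6J and 17 weeks old, and the wild-type group held 3 C57BL/6J mice of the same age. The series design calls the mutants male and sets them against 4 controls, of which 3 muscle controls were analysed here. The labels do not give the allele, the muscle that was dissected, the hour of dissection or the feeding state. Each library came from a different mouse, and the same 7 mice also gave the brain arrays of the series. Levels below are log2 intensities after background correction and quantile normalization, differences are mutant minus wild type, and a change was called at an adjusted p under 0.05.

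Sgms1 encodes sphingomyelin synthase 1, which transfers phosphocholine from phosphatidylcholine to ceramide in the Golgi and so makes sphingomyelin and diacylglycerol. Skeletal muscle is built of fast and slow fibres with separate sets of troponin, myosin and calcium pump genes. A dissected piece also holds vessels, connective tissue and a varying amount of white or brown fat between and around the fibres. Muscle runs its own circadian clock, in which Bmal1 and Clock drive the period and cryptochrome repressors, the REV-ERB receptors and output factors such as Dbp. In a bulk sample, fewer cells of a type and less RNA per cell cannot be told apart.

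Rbp7 and leptin (Lep), both genes of fat tissue, had the smallest p-values, followed by Map4, Taf6 and a probe without a symbol. Lep, gamma-synuclein (Sncg), Rbp7, Angptl4, haptoglobin (Hp) and Cdsn fell in mutant muscle. Map4, Taf6, the clock genes Dbp and Bhlhe40 and 2 probes without a symbol rose. Of 11391 probes tested, 12 passed (0.105%), 6 higher (0.0527%) and 6 lower (0.0527%) in mutants, and 1046 had an unadjusted p under 0.05. Over all probes the median difference was 0.0102. The 7 arrays had median intensities between 133 and 143 and between 10652 and 11466 detected probes. All 10 muscle fibre markers were detected in every library, with a median difference of -0.01.

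**Figure D1:**
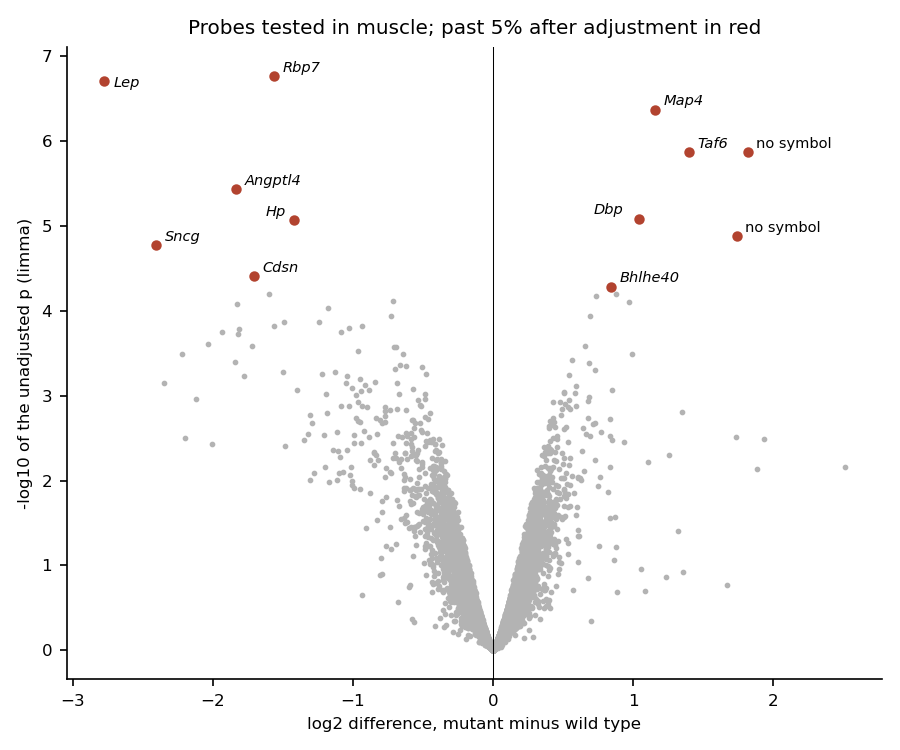
Difference between mutant and wild-type muscle (x axis, log2) against the -log10 unadjusted p of limma (y axis) for the 11391 probes tested; the 12 red points passed at an adjusted p under 0.05. Lep lies farthest to the left among the red points at -2.78, and the red points to the right of 0 include Map4, Taf6, Dbp and Bhlhe40.

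Promoter windows from RefSeq (GRCm38.p6, 300 bases around the annotated start, read along the gene's strand) are shown for 3 genes of the fat and clock lists. Lep and Dbp passed the threshold and Per3 did not. Lep is the largest fall, Dbp is a clock output that rose, and Per3 is a period gene of the kind that the Dbp protein acts on through D-box elements. Capitals mark matches on either strand to the E-box CACGTG (bound by Bmal1 and Clock), to the D-box TTATGTAA or TTATGCAA (bound by Dbp and its relatives), or to TTGCNNAA, a C/EBP-type motif of fat cell regulators. The reverse strand of TTATGCAA is TTGCATAA and therefore also matches the C/EBP-type motif.
Lep, chr6:29059971-29060270, plus strand: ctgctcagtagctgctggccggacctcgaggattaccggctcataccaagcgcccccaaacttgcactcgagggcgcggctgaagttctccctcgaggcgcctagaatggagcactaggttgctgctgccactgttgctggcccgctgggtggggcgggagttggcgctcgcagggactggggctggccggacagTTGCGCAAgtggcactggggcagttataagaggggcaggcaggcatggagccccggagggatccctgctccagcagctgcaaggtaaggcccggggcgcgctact
Dbp, chr7:45704997-45705296, plus strand: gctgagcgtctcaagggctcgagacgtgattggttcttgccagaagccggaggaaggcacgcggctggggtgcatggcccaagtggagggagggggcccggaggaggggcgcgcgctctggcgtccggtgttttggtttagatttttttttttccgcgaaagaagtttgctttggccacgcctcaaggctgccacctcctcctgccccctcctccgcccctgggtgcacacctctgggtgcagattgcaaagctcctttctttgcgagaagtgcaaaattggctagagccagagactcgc
Per3, chr4:151044616-151044915, minus strand: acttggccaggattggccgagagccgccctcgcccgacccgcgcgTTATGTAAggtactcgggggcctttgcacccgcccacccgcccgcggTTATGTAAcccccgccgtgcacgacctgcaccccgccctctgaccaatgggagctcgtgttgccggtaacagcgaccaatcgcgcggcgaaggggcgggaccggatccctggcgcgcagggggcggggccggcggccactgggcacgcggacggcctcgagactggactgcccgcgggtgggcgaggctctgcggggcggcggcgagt

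The Lep window held 1 C/EBP-type match, from base -55 to -48 relative to the start. The Per3 window held 2 D-boxes, beginning at -205 and -158. None of the 3 motifs occurred in the Dbp window. For comparison, an E-box occurred in 7.15% of 32851 RefSeq promoter windows, a D-box in 1.66% and the C/EBP-type motif in 10.8%. Among 25 windows of 17 clock genes, 6 held an E-box and 2 a D-box, and among 22 windows of 17 adipocyte genes 5 held the C/EBP-type motif. These matches describe the letters of the windows only.

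The mutated gene was lower in every mutant library. Sgms1 stood at 7.21, 7.50, 7.30 and 7.13 in mutants, against 7.77, 8.09 and 8.12 in wild type. The groups did not overlap, and the gap between the highest mutant (replicate 2) and the lowest wild type (replicate 1) was narrow. The difference was -0.70 (SE 0.13) and missed the threshold (adjusted p = 0.0871 by limma, exact permutation p = 0.0286, the smallest that 4 against 3 allows). The probe was detected in all 7 libraries, and where it lies with respect to the mutated site was not known here. Muscle therefore gave a check of the mice behind brain mutant 2 and brain wild type 3, whose brain levels went against their labels. With all arrays of the series normalized together, brain mutant 2 stood at 7.19, the highest mutant brain, and brain wild type 3 at 5.78, the lowest wild-type brain. The muscle libraries of those mice followed their labels, since mutant muscle lay between 7.58 and 7.91 on that joint scale and wild-type muscle between 8.16 and 8.49.

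Other genes of sphingolipid metabolism differed little. Sgms2, the second sphingomyelin synthase, was detected in 0 of 7 muscle libraries, and Samd8, which makes ceramide phosphoethanolamine, differed by 0.06 (SE 0.11). None of the genes tested on the sphingolipid lists passed. Of 8 tested genes of ceramide synthesis and transport 7 were lower, with a median of -0.23, and 8 others were not tested because too few libraries detected them. The very-long-chain ceramide synthase gene Cers2 stood at 7.81, 7.75, 7.61 and 7.74 in mutants, against 8.27, 7.99 and 8.10 in wild type. These groups did not overlap, and a second Cers2 probe also kept them apart (-0.34, SE 0.14), while its dimmest probe did not (-0.08, SE 0.12). The difference on the first probe was -0.39 (SE 0.11, adjusted p = 0.258 by limma). Kdsr, the reductase of the second step of ceramide synthesis, differed by -0.24 (SE 0.12) and Ormdl3, which restrains serine palmitoyltransferase, by -0.48 (SE 0.19), which turned to 0.25 with the Adipoq level as a covariate. Asah2, a neutral ceramidase, stood at 6.77, 6.79, 6.72 and 6.99 in mutants and at 6.51, 6.28 and 6.45 in wild type. Its groups were apart by 0.41 (SE 0.11, adjusted p = 0.258 by limma), and the sphingosine kinase gene Sphk2 differed by 0.31 (SE 0.13).

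Asah2 also lies beside Sgms1. Among 10 tested genes within 15 protein-coding genes on either side of Sgms1 in the RefSeq order, 4 were higher and 6 lower, with 0 past the threshold. Gldc, the glycine cleavage decarboxylase, was detected in 0 of 4 mutants (4.35, 4.51, 4.29 and 4.32) and in 3 of 3 wild types (4.75, 5.12 and 5.21). Set against the lowest detected signal of each mutant array it was at least 1.27-fold lower in mutants (adjusted p = 0.115 by limma). Its second probe was not detected in any library.

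The gene of the fat cell hormone leptin was among the 6 probes called lower, as were Angptl4 and Hp. Lep stood at 5.66, 5.70, 6.22 and 5.50 in mutants, against 8.00, 8.71 and 8.95 in wild type. The lowest wild type (replicate 1) lay well above the highest mutant (replicate 3), and the difference was -2.78 (SE 0.23, adjusted p = 0.00111 by limma). Angptl4, a secreted inhibitor of lipoprotein lipase, had 7.12, 7.13, 7.54 and 6.62 in mutants and 8.82, 8.71 and 9.28 in wild type, with mutant 3 again the highest mutant. It fell by 1.83 (SE 0.21, adjusted p = 0.00708 by limma). Hp, the plasma protein that binds free haemoglobin and is also made by fat cells, stood at 6.37, 6.09, 6.02 and 6.09 in mutants and at 7.13, 7.64 and 7.91 in wild type. On this probe mutant libraries lay close together and below all wild types, and the fall was 1.42 (SE 0.17, adjusted p = 0.0122 by limma). Brighter Hp probes also kept the groups apart but missed the threshold. They gave -1.49 (SE 0.25, adjusted p = 0.0679 by limma) and -1.81 (SE 0.32, adjusted p = 0.0697 by limma), with mutants from 6.11 to 6.85 and from 7.25 to 8.17. The acute-phase gene Orm1 stood at 6.10, 5.38, 6.22 and 5.38 in mutants and at 7.24, 7.31 and 8.86 in wild type, and its difference of -2.03 (SE 0.37) missed the threshold (adjusted p = 0.0871 by limma).

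**Figure D2:**
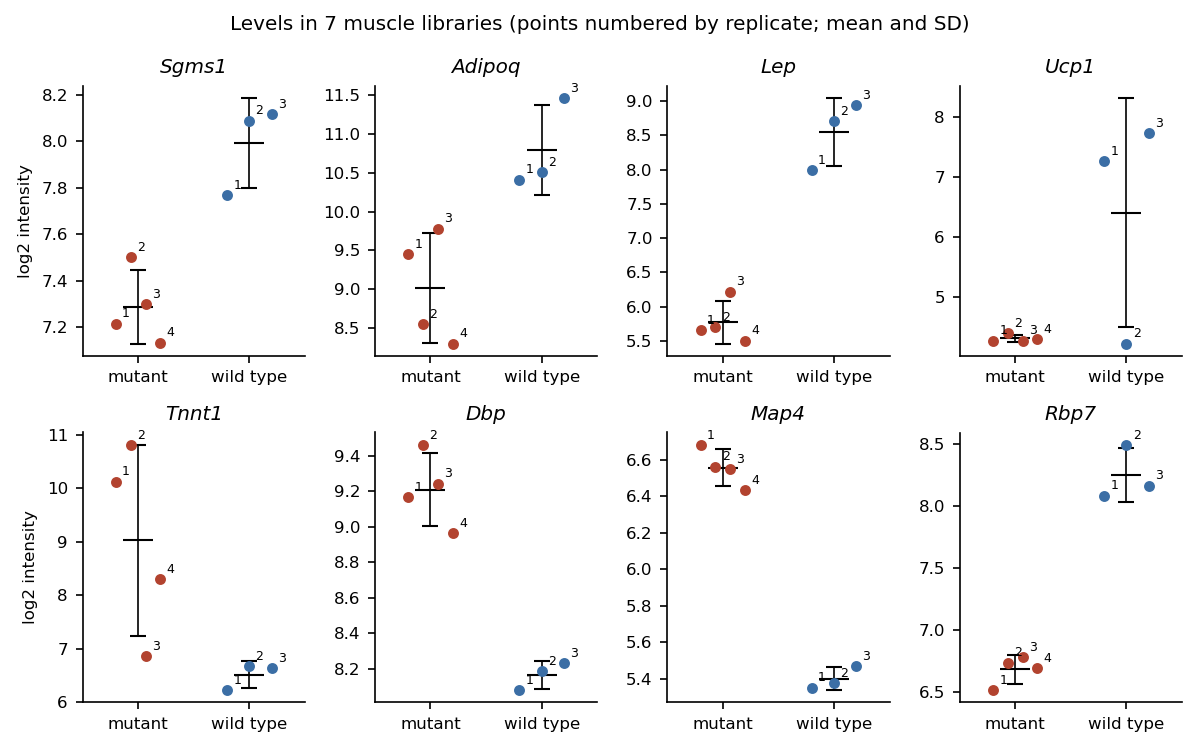
Log2 intensity (y axis) of 8 genes in the mutant (red, left) and wild-type (blue, right) muscle libraries, each point numbered by its replicate, with the mean and SD in black. Sgms1, Adipoq, Lep and Rbp7 lie lower in all 4 mutants, Dbp and Map4 higher, Ucp1 is high in wild types 1 and 3 alone, and Tnnt1 spreads from 6.86 to 10.81 among mutants.

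Among binding and structural proteins of fat, Rbp7, a retinol-binding protein of adipose tissue and its vessels, stood at 6.52, 6.74, 6.79 and 6.70 in mutants and at 8.09, 8.50 and 8.17 in wild type. Both groups were tight, and Rbp7 fell by 1.56 (SE 0.13, adjusted p = 0.00111 by limma). Sncg, a synuclein found in fat cells and peripheral nerve, had 6.60, 6.53, 7.17 and 6.10 in mutants and 8.32, 8.92 and 9.78 in wild type. Wild type 3 was highest and mutant 4 lowest, the order also seen for Adipoq. Sncg fell by 2.40 (SE 0.32, adjusted p = 0.0190 by limma). Nerve and Schwann cell markers had 2 of 4 tested genes lower, and their summed log2 level ran from 8.29 to 8.96 in mutants and from 8.74 to 9.21 in wild type. The part of nerve content in the fall of Sncg was not tested.

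Adiponectin (Adipoq), secreted by fat cells, was taken as a marker of the fat in each library. It stood at 9.45, 8.54, 9.78 and 8.30 in mutants, against 10.41, 10.51 and 11.46 in wild type, a difference of -1.78 (SE 0.36, adjusted p = 0.125 by limma). Mutants 2 and 4 were lowest and wild type 3 highest. All 18 tested adipocyte hormones and markers lay lower in mutants, with a median of -1.15 beside 0.0122 over all 8101 genes. Of these 3 passed (Lep, Rbp7 and Sncg), where 0.0617% of all genes passed as lower, and 15 had an unadjusted p under 0.05, where 4.74% of all genes did so as lower. In 14 of the 18 all mutants lay below all wild types, which held for 4.44% of all genes; over all probes, in either direction, 8.88% had groups that did not overlap. The probes of Fabp4, Retn and Cd36 were detected in 0 of 7 libraries and were not tested. The lipid droplet gene Cidec had 6.64, 5.89, 7.53 and 5.45 in mutants and 7.78, 8.32 and 9.39 in wild type, so that its order over libraries followed Adipoq. The fat cell regulators Pparg (-1.11, SE 0.31) and Cebpa (-0.77, SE 0.24) did not pass, and Cebpa was detected in 0 of 4 mutants and 3 of 3 wild types. Lpl, which fibres make as well, differed by -0.29 (SE 0.18) and Car3, abundant in slow fibres and in fat, by -0.31 (SE 0.26).

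With the Adipoq level as a covariate, an alternative chosen after seeing the data, the median over the adipocyte genes was -0.03 and 8 of 18 were higher. In that fit Lep differed by -2.01 (SE 0.33), against -2.78 in the main fit, and Rbp7 by -1.64 (SE 0.25), against -1.56. The other called falls were smaller than in the main fit. Sncg differed by -1.08 (SE 0.35), Angptl4 by -1.01 (SE 0.25), Hp by -1.05 (SE 0.31) and Cdsn by -0.85 (SE 0.36). Cidec turned to 0.16 (SE 0.28) and Scd1 differed by -0.33 (SE 0.38). Across all probes 0 passed there by limma and 445 had an unadjusted p under 0.05, with adjusted p of 0.410 for Lep and 0.395 for Rbp7. Adipoq itself separates the genotypes, so that the part of fat content in these results cannot be told apart from genotype.

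Brown fat signal was uneven among wild types. Ucp1, the uncoupling protein of brown fat, stood at 4.28, 4.40, 4.28 and 4.29 in mutants, where it was detected in 0 of 4, and at 7.27, 4.22 and 7.72 in wild type, where replicates 1 and 3 had it. Cidea, a lipid droplet protein of brown fat, followed with 5.80, 5.14, 5.86 and 4.58 in mutants and 8.46, 5.80 and 8.37 in wild type. Among other brown fat markers Elovl3, Dio2, Cpn2, Prdm16 and Slc27a2 were detected in 0 of 7 libraries. Of the 6 tested genes on the brown fat list 4 were higher and 2 lower in mutants. Their median was 0.03, and 0 passed. Without wild types 1 and 3, which leaves 1 wild type assumed to vary like the mutants, 16 of 16 tested adipocyte genes were lower, with a median of -0.71, and 4 probes passed. Lep (-2.93) and Rbp7 (-1.81) were among the 4, and Angptl4 (-1.61, adjusted p = 0.226 by limma), Hp, Sncg, Dbp, Bhlhe40, Map4 and Taf6 were not, and Cdsn was not tested there. The differences in that fit were -1.49 for Hp, -2.32 for Sncg, 1.16 for Map4, 1.28 for Taf6 and 0.62 for Bhlhe40.

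Lipid synthesis genes had both patterns. Of 18 tested genes of fatty acid and triglyceride synthesis 13 were lower, 0 passed, and the median was -0.34. Scd1, the stearoyl-CoA desaturase, stood at 10.26, 9.60, 11.14 and 9.25 in mutants and at 12.34, 11.58 and 12.94 in wild type. All mutants lay below all wild types, in the library order of Adipoq within the mutants, and the difference was -2.22 (SE 0.42, adjusted p = 0.0957 by limma). Elovl6, an elongase, had 4.64, 4.72, 5.00 and 4.37 in mutants and 6.05, 4.94 and 6.02 in wild type. Its wild types with Ucp1 stood above the mutants and wild type 2 did not. Acaca, the first committed enzyme of fatty acid synthesis, repeated this with 8.44, 7.53, 8.20 and 7.59 in mutants and 9.21, 8.18 and 9.72 in wild type. The fatty acid synthase gene Fasn (0.13, SE 0.13) and the regulators Srebf1 (0.17, SE 0.12) and Mlxipl (0.13, SE 0.11) did not lie lower. With the Adipoq covariate the median of the list was 0.07.

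Fuel choice genes were lower by smaller steps. Of 19 tested genes of fatty acid oxidation and fuel choice 16 were lower, with a median of -0.15. Angptl4 alone passed, where 0.0617% of all genes passed as lower. An unadjusted p under 0.05 was reached as lower by 4 of the 19, where 4.74% of all genes did so. In 4 all mutants lay below all wild types, which held for 4.44% of all genes. Pdk4, which inhibits pyruvate dehydrogenase, stood at 12.10, 12.13, 12.25 and 12.23 in mutants and at 12.55, 12.56 and 12.79 in wild type. Although Pdk4 was among the brightest probes and its groups did not overlap, the difference of -0.45 (SE 0.11) did not pass (adjusted p = 0.181 by limma). The muscle uncoupling protein gene Ucp3 had 6.95, 7.55, 7.57 and 7.49 in mutants and 7.90, 8.05 and 8.58 in wild type, and its second probe kept the groups apart as well (-0.61, SE 0.18). With the Adipoq covariate Pdk4 differed by -0.32 and Ucp3 by -0.62. The 16 other tested genes, most of them enzymes and carriers of beta-oxidation, ran from -0.32 for the thioesterase gene Acot2 to 0.09 for Acadvl.

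Clock genes lay mostly the other way. Dbp, a transcription factor driven by Bmal1 and Clock, stood at 9.17, 9.46, 9.24 and 8.96 in mutants, against 8.08, 8.19 and 8.23 in wild type. Every mutant was higher, and Dbp rose by 1.04 (SE 0.13, adjusted p = 0.0122 by limma). Bhlhe40, a repressor of Bmal1 and Clock that also responds to hypoxia and feeding, had 9.54, 9.90, 9.72 and 9.80 in mutants and 8.82, 9.11 and 8.76 in wild type. The groups were apart, and Bhlhe40 rose by 0.84 (SE 0.13, adjusted p = 0.0494 by limma). These 2 of 15 tested clock genes passed, where 0.037% of all genes passed as higher. In all 11 of the 15 were higher, with a median of 0.17, and 5 had an unadjusted p under 0.05, where 4.31% of all genes did so as higher. In 4 of them all mutants lay above all wild types, which held for 4.59% of all genes.

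Among the repressors driven by the clock, Nr1d1 (REV-ERB alpha) stood at 8.91, 8.62, 8.55 and 8.52 in mutants and at 7.94, 8.23 and 8.22 in wild type. All mutants were higher (0.52, SE 0.13, adjusted p = 0.206 by limma), and its second probe gave 0.43 (SE 0.13). Per2 was read by 2 detected probes. The brighter probe gave 6.02, 6.84, 6.66 and 6.47 in mutants and 5.82, 5.96 and 6.02 in wild type, so that mutant 1 all but met wild type 3. The other probe gave 6.01, 6.40, 6.77 and 5.98 in mutants and 5.28, 5.14 and 5.48 in wild type, a difference of 0.99 (SE 0.19, adjusted p = 0.0957 by limma). Per3, whose window holds the 2 D-boxes printed above, was dim, detected in 4 of 4 mutants and 1 of 3 wild types, and differed by 0.40 (SE 0.14). Ciart, a clock repressor, was detected in 2 of 4 mutants and 0 of 3 wild types and was not tested.

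The 4 clock genes that lay lower were Arntl, Clock, Cry2 and Nfil3, with 0 past the threshold. Arntl, which encodes Bmal1, differed by -0.05 (SE 0.16), Clock by -0.09 (SE 0.12), Cry2 by -0.25 (SE 0.11) and Nfil3, a repressor of D-box genes, by -0.21 (SE 0.15). The Dbp relatives Tef (0.17, SE 0.22) and Hlf (0.05, SE 0.11) did not pass. Per1, which glucocorticoids also induce, stood at 6.71, 7.40, 6.79 and 6.53 in mutants and at 5.35, 6.53 and 6.88 in wild type, with wild type 1 low and wild type 3 above 3 of the mutants. Of 13 tested glucocorticoid-responsive genes 9 were lower and 0 had an unadjusted p under 0.05. With the Adipoq covariate the clock median was 0.18 and Dbp differed by 1.15 (SE 0.25, adjusted p = 0.754 by limma). Bhlhe40 differed there by 0.57 (SE 0.23, adjusted p = 0.999 by limma), against 0.84 in the main fit. Without the Ucp1-positive wild types the clock median was 0.17, with Dbp at 1.03 and Bhlhe40 at 0.62.

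**Figure D3:**
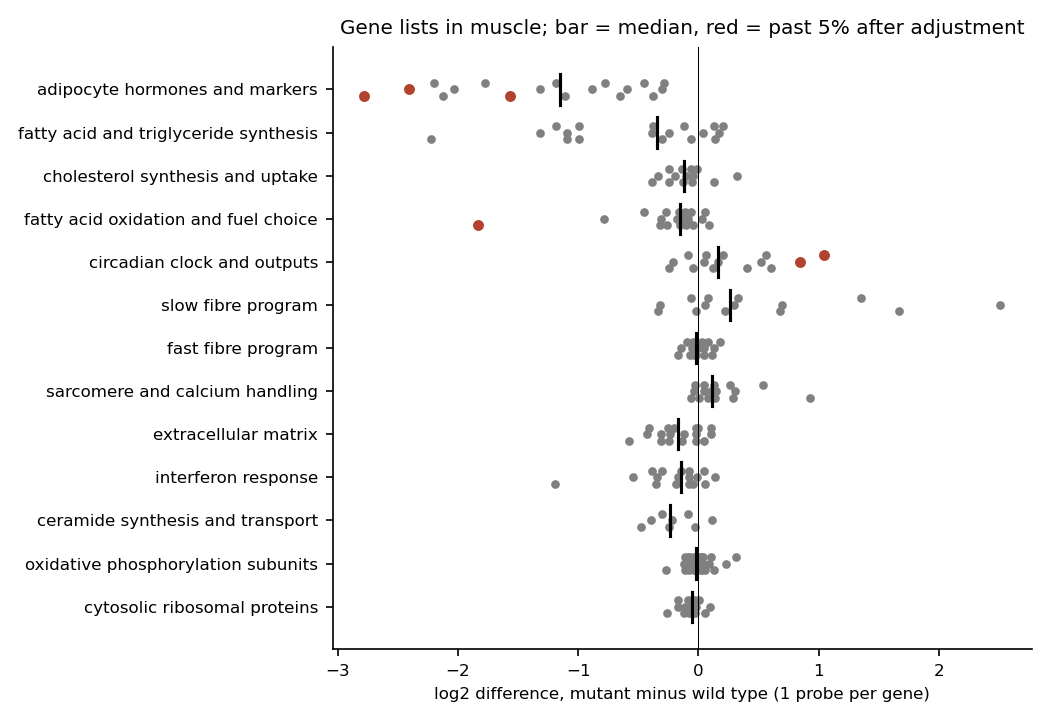
Difference between mutant and wild-type muscle (x axis, log2) for the tested genes of 13 lists (rows), 1 probe per gene, with the list median as a bar and genes past the threshold in red. The adipocyte genes all lie left of 0 with a median of -1.15, the clock median is 0.17, and the fast fibre genes sit between -0.17 and 0.18.

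Map4, Taf6 and 2 probes without a gene symbol also rose. Map4, a microtubule-binding protein that organises microtubules in muscle fibres, stood at 6.68, 6.56, 6.55 and 6.43 in mutants, against 5.35, 5.38 and 5.47 in wild type. Both groups were tight, and Map4 rose by 1.16 (SE 0.10, adjusted p = 0.00163 by limma), while its second probe was detected in 0 libraries. Taf6, a subunit of the general factor TFIID, had 6.49, 6.17, 6.08 and 5.92 in mutants and 4.64, 4.86 and 4.81 in wild type on the probe that passed (1.40, SE 0.14, adjusted p = 0.00310 by limma). Its second probe, detected in all libraries, gave 0.02 (SE 0.12), so the probes of Taf6 disagree. Probe ILMN_2455192 was detected in 4 of 4 mutants (6.78, 5.92, 6.03 and 6.20) and 0 of 3 wild types (4.40, 4.39 and 4.44), at least 2.93-fold higher in mutants (adjusted p = 0.00310 by limma). Probe ILMN_2449449 had 7.02, 5.96, 6.04 and 6.43 in mutants and 4.77, 4.49 and 4.60 in wild type, where 1 of 3 detected it, and rose by 1.74 (SE 0.23, adjusted p = 0.0165 by limma). Mutant 1 was highest and mutant 2 lowest on both of these probes.

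Cdsn, the corneodesmosin of skin, fell by 1.71 (SE 0.25, adjusted p = 0.0409 by limma). It stood at 4.52, 4.56, 5.00 and 4.40 in mutants and at 5.69, 6.38 and 6.91 in wild type, with 1 of 4 mutants and 3 of 3 wild types detected. Of 9 skin markers 3 were tested, and the keratins Krt5, Krt14 and Krt1, which define epidermis, were detected in 0 of 7 libraries. Krt10 was higher in mutants by 0.26 (SE 0.11).

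Just outside the threshold, the smallest p-values belonged to 14 further genes, none of which passed. Enpp4, an ectophosphodiesterase, stood at 7.95, 8.08, 7.88 and 7.87 in mutants and at 6.81, 7.03 and 7.36 in wild type (0.88, SE 0.14, adjusted p = 0.0510 by limma). Prkaa2, the catalytic alpha 2 subunit of AMP-activated protein kinase, was higher by 0.73 (SE 0.11, adjusted p = 0.0510 by limma) on a probe detected in 1 of 3 wild types, and its brighter probe differed by 0.25 (SE 0.19). The mitochondrial ribosome gene Mrps27 was higher by 0.69 (SE 0.12). The other 11 were lower, from -0.72 for the membrane repair gene Anxa2 and -0.72 for the tubulin gene Tuba1b to -1.93 for the imprinted gene Nnat. Among them Aoc3 (-1.82, SE 0.32), Ces1d (-1.18, SE 0.19), Ccdc80 (-1.56, SE 0.27) and Ccdc3 (-0.93, SE 0.16) are abundant in adipose tissue. Anxa2 stood at 9.92, 9.72, 9.77 and 9.70 in mutants and at 10.32, 10.62 and 10.54 in wild type.

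Slow fibre genes split the mutants. Tnnt1, slow troponin T, stood at 10.12, 10.81, 6.86 and 8.30 in mutants, against 6.22, 6.67 and 6.64 in wild type. Mutants 1 and 2 were far above the others, mutant 3 stood close to the wild types, and the difference of 2.51 (SE 0.75) did not pass (adjusted p = 0.306 by limma). Of 14 tested slow fibre genes 10 were higher, 0 passed, and the median was 0.26. Without mutants 1 and 2, the highest in Tnnt1, the median was -0.19; leaving out the libraries highest in slow genes lowers it by construction. Myh7, the slow myosin heavy chain, was detected in mutants 1 and 2 and in no other library.

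Tnnt1 departed from its slow fibre partners. Tnnc1, slow troponin C, had 10.02, 10.34, 6.54 and 8.05 in mutants and 8.20, 7.48 and 6.48 in wild type. The myosin light chain gene Myl3 had 11.63, 11.49, 6.36 and 9.15 in mutants and 9.12, 8.47 and 6.38 in wild type. By both genes wild type 1 matched mutant 4, and wild type 3 matched mutant 3, whereas Tnnt1 in wild type 1 (6.22) was the lowest of all libraries and in mutant 4 was 8.30. Myl2 (9.94 in wild type 1 and 8.95 in mutant 4) and Atp2a2, the slow calcium pump (9.77 in wild type 1 and 9.57 in mutant 4), also placed that wild type at or above mutant 4. With the Tnnc1 level as a covariate, added after seeing these values, Tnnt1 differed by 1.38 (SE 0.42, adjusted p = 0.5 by limma), and 5 probes passed, among them Lep, Rbp7, Map4 and Taf6. The part of slow fibre content in these differences was not tested.

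**Figure D4:**
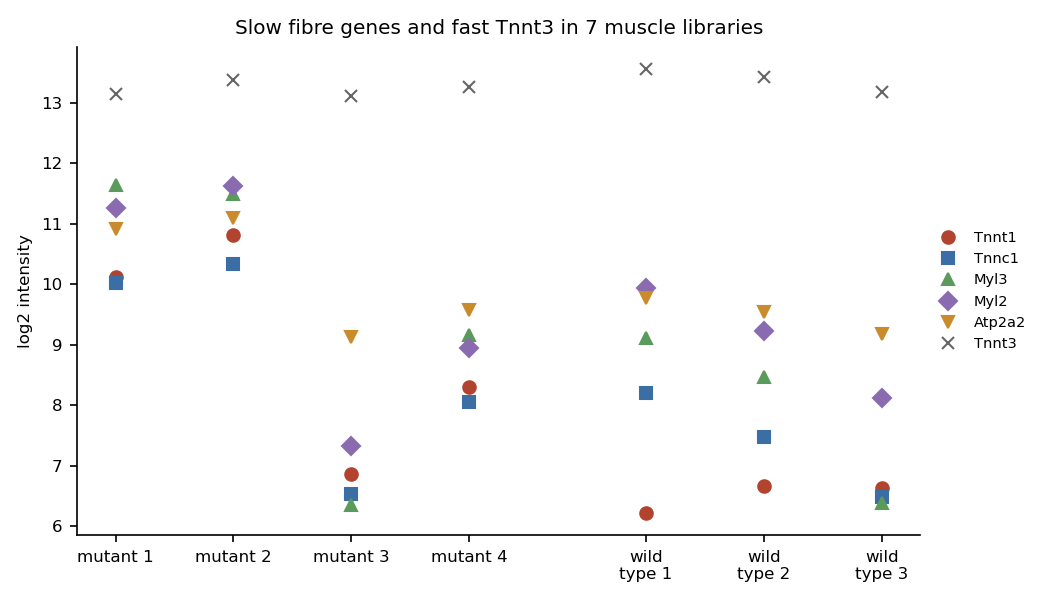
Log2 intensity (y axis) of 5 slow fibre genes and of fast troponin T (Tnnt3) in each muscle library (x axis, mutants left of wild types). Mutants 1 and 2 are highest for every slow gene shown; Tnnc1, Myl2 and Myl3 are higher in wild type 1 than in wild type 3, whereas Tnnt1 lies between 6.22 and 6.67 in all 3 wild types.

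Fast fibres and mitochondria gave no such split. Of 18 tested fast fibre genes 0 had an unadjusted p under 0.05, and the differences ran from -0.17 for the fast troponin Tnnt3 to 0.18 for Myom2. Of 30 tested subunits of oxidative phosphorylation 0 had an unadjusted p under 0.05 and the median was -0.02. Cytosolic ribosomal protein genes had a median of -0.06 over 17 tested. Of 16 tested genes of the sarcomere and calcium handling 13 were higher, with a median of 0.12 and 0 past the threshold. Among these, Cacna2d1, the alpha 2 delta subunit of the muscle calcium channel, stood at 8.06, 8.19, 7.78 and 8.62 in mutants and at 6.77, 7.10 and 7.82 in wild type (0.93, SE 0.25, adjusted p = 0.235 by limma). Wild type 3 overlapped the mutants.

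Dystroglycan (Dag1), which links the fibre to laminin, was higher on both of its probes. Its brighter probe gave 8.31, 8.24, 8.72 and 8.34 in mutants and 7.90, 7.63 and 7.49 in wild type, and the groups did not overlap. The differences were 0.73 (SE 0.15, adjusted p = 0.122 by limma) and 0.59 (SE 0.13, adjusted p = 0.149 by limma). With the Adipoq covariate the brighter probe differed by 0.83. Other members of the dystrophin complex, such as Sgca (-0.03, SE 0.10) and Sgcb (0.02, SE 0.12), stayed near 0.

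Connective tissue and immune genes held no member past the threshold. Extracellular matrix genes were lower in 15 of 18 tested, with a median of -0.17, 0 past the threshold and a median of 0.20 with the Adipoq covariate. The matrix glycoprotein gene Sparc had 9.55, 9.09, 9.33 and 9.25 in mutants and 9.55, 9.92 and 10.17 in wild type, where mutant 1 all but met wild type 1. Of the 8 tested fibroblast markers 5 were lower, and their summed log2 level ran from 11.94 to 12.55 in mutants and from 11.98 to 12.23 in wild type. Macrophage markers were higher in 6 of 7 tested, 0 of them at an unadjusted p under 0.05, with mutant 1 highest at a summed level of 10.36. The remaining mutants ran from 9.05 to 9.75 and the wild types from 9.37 to 9.72.

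Interferon response genes were lower in 14 of 17 tested, with a median of -0.15 and 0 past the threshold. Ifi27l2a, an interferon-induced mitochondrial protein that fat also expresses, stood at 9.31, 8.93, 9.76 and 8.45 in mutants and at 10.08, 10.26 and 10.57 in wild type (-1.19, SE 0.26, adjusted p = 0.149 by limma), in the library order of Adipoq. Cxcl9, a chemokine induced by interferon gamma, differed by -1.09 (SE 0.19, adjusted p = 0.0697 by limma). The classical antiviral genes Isg15 (-0.08), Ifit3 (0.05) and Rsad2 (0.05) stayed close to 0.

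Amino acid stress genes lay on both sides of 0. Asns, asparagine synthetase and a target of the factor Atf4, stood at 5.57, 5.31, 5.73 and 5.47 in mutants and at 6.26, 6.38 and 7.00 in wild type (-1.03, SE 0.18, adjusted p = 0.0693 by limma). A dimmer Asns probe gave -0.25 (SE 0.15) with groups that overlapped, and another was not detected in any library. Psat1, of serine synthesis, differed by -0.95 (SE 0.25). Chac1 and Ddit3, further Atf4 targets, were higher in mutants by 0.51 (SE 0.17) and 0.30 (SE 0.11). A second Ddit3 probe gave -0.04 (SE 0.12), and none of the 4 genes passed.

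Brain and testis served to ask whether the muscle differences were shared. The brain came from the same mice, and the comparison took muscle minus brain within each mouse on a scale normalized over all arrays, where levels differ from those above. Of 11391 probes 5 passed (0.0439%), and 871 (7.65%) had an unadjusted p under 0.05. All 5 were falls in muscle, relative to brain, of Lep (-2.48, SE 0.25, adjusted p = 0.0181 by limma), Rbp7 (-1.39, adjusted p = 0.0236 by limma), Sncg (-2.13, adjusted p = 0.0447 by limma), Angptl4 and Hp (-1.70 and -1.40, adjusted p = 0.0491 each by limma). Lep was detected in 0 of 4 mutant and 1 of 3 wild-type brains and Hp in 3 of 4 and 0 of 3. Rbp7 lay between 4.34 and 4.66 in mutant brains and between 4.46 and 4.51 in wild-type brains. The contrast for Lep, Hp and Rbp7 is therefore one with a tissue near background. Sncg was measured in every brain, between 7.29 and 7.49 in mutants and between 7.14 and 7.84 in wild type. Leaving out mutant 1, 2 or 4, or wild type 2, left 0 probes past the threshold by limma, with 958, 864, 785 and 795 at an unadjusted p under 0.05. Without wild type 1 it was 3. Without wild type 3 it was 1 probe, higher in mutants, so that none of the 5 falls passed. Leaving out the mice of brain wild type 3 and brain mutant 2, whose Sgms1 went against their labels, likewise left 1 probe, higher in mutants, and none of the 5 falls.

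The clock and microtubule genes did not pass against brain. Dbp differed between the tissues by 0.76 (SE 0.18, adjusted p = 0.263 by limma) and Bhlhe40 by 0.81 (SE 0.14, adjusted p = 0.110 by limma). In brain itself Dbp stood at 9.86 in mutants and 9.69 in wild type, a difference of 0.18 (SE 0.11). For Map4 the difference between tissues was 1.06 (SE 0.15, adjusted p = 0.0842 by limma). For Taf6 it was 1.00 (SE 0.27), and the brain difference of Taf6 was 0.58 (SE 0.31), in the direction of muscle. Taf6 stood at 5.88, 4.58, 5.17 and 5.21 in mutant brains and at 4.40, 4.33 and 5.17 in wild-type brains. The lowest mutant (replicate 2) and the highest wild type (replicate 3) were the brains whose Sgms1 went against their labels. The reason was not tested.

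Testis came from 4 mutant and 4 wild-type mice aged 27 weeks, so tissue and age cannot be told apart there. Of 11391 probes 6 passed (0.0527%), and 807 (7.08%) had an unadjusted p under 0.05. Lep was expressed in testis libraries at 7.21 in mutants and 7.19 in wild type on the joint scale, and the muscle effect minus the testis effect was -2.57 (adjusted p = 0.0378 by limma). Cdsn (-2.53, adjusted p = 0.0457 by limma) and Mmd, a membrane protein of the progestin and adiponectin receptor family (-1.84, adjusted p = 0.0457 by limma), had opposite signs in the tissues. Mmd stood at 9.17 in mutant and 10.28 in wild-type muscle, and at 6.70 in mutant and 5.97 in wild-type testis. Map4 differed by 1.48 (adjusted p = 0.0457 by limma), with 1.11 in muscle and -0.36 in testis, and both unnamed probes differed too (2.37 and 2.08). In testis ILMN_2455192 was detected in 0 of 4 mutants and 0 of 4 wild types, and ILMN_2449449 in 2 of 4 of each. The contrast for ILMN_2455192 is therefore one with background. In brain both probes were higher in mutants, by 0.73 (SE 0.39) and 0.59 (SE 0.32). Their muscle effect minus brain effect missed the threshold (1.66 and 1.49, adjusted p = 0.110 each by limma). Adipoq, present in testis at 7.67 in mutants and 7.95 in wild type, differed there by -0.28 (SE 0.27). In each of the fits that left out mutant 1, 2 or 4, or wild type 2 or 3, 1 probe passed and it was higher in muscle relative to testis. Lep, Cdsn and Mmd were therefore not called there, and of Map4 and both unnamed probes at most 1 was called. The count was 12 without mutant 3 and 11 without wild type 1.

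**Figure D5:**
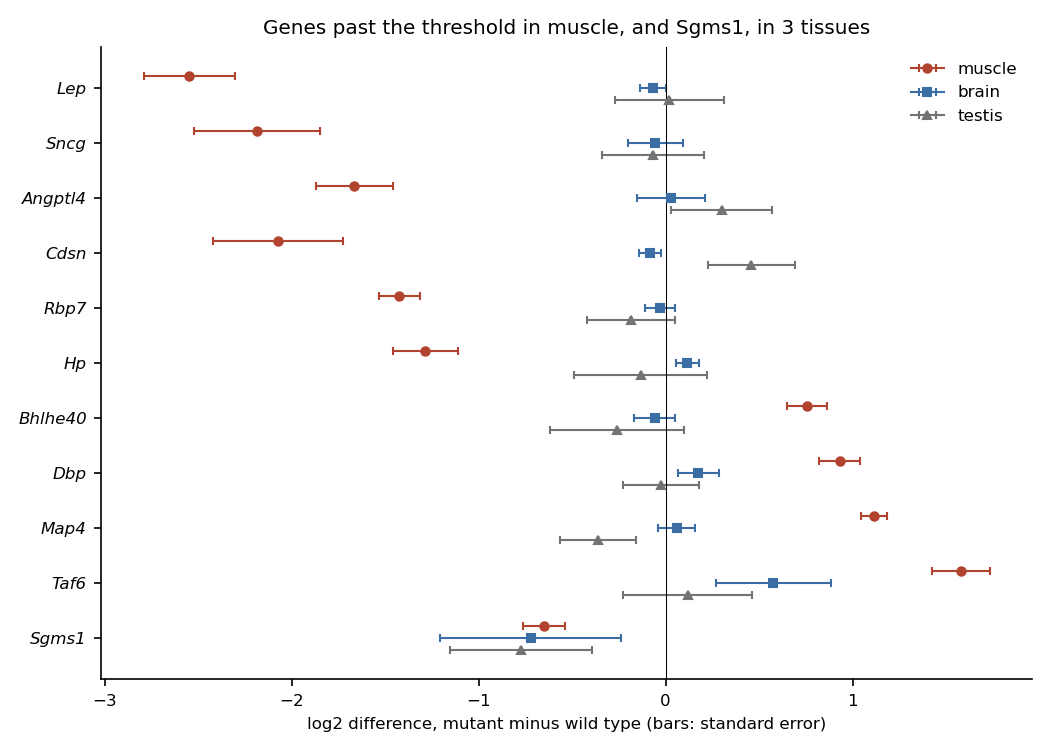
Difference between mutant and wild type (x axis, log2, with its standard error) in muscle (red circles), brain (blue squares) and testis (grey triangles) for the 10 genes past the threshold in muscle and for Sgms1, all arrays normalized together. Lep, at -2.55 in muscle, lies at -0.07 in brain and 0.02 in testis, and the mean of Sgms1 differs by -0.65 in muscle, -0.72 in brain (SE 0.485) and -0.77 in testis (SE 0.38), with groups that overlap in brain and testis.

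The calls differed in how they held up when 1 library was left out. Lep, Rbp7, Map4, Taf6 and Angptl4 passed in all 7 such fits. Lep, Rbp7 and Map4 also passed with each other background step, offset, scaling, filter, eBayes option, array weighting, probe choice and replicate block that was run. Dbp was no longer called in the absence of wild type 2 (adjusted p = 0.0585 by limma), Hp without wild type 2 (0.0616) or mutant 2 (0.0681), and Sncg without wild type 2 (0.0672), mutant 1 (0.0566) or mutant 2 (0.113). Cdsn missed it without wild type 2 (0.116) or mutants 1 (0.0999), 2 (0.180) or 4 (0.120). Bhlhe40 passed without mutant 1 alone, with 0.0975, 0.0532 and 0.131 without wild types 1, 2 and 3 and 0.180, 0.0717 and 0.148 without mutants 2, 3 and 4. Other processing settings also ended calls, with the direction kept. Taf6 missed the threshold with no background correction (adjusted p = 0.0744 by limma) and with the authors' processed values (0.0664). Angptl4 missed it with all arrays normalized together (0.0601), with the authors' processed values (0.127) and with no detection filter (0.129). In those same 3 settings Dbp, Hp, Sncg, Cdsn and Bhlhe40 were not called either, with adjusted p from 0.0743 to 0.253 by limma. With no background correction Hp (0.0821), Sncg (0.121), Cdsn (0.198) and Bhlhe40 (0.0508) missed it too. Turning on trend and robust in eBayes ended the call of Sncg (adjusted p = 0.135 by limma). An offset of 50 ended that of Cdsn (0.0652). The replicate block left Hp (0.0571) and Bhlhe40 (0.0548) uncalled. Taking 1 probe per gene did so for Cdsn and Bhlhe40 (0.0562 each). The called probes of Taf6 and Hp were not in that fit, since a brighter probe stood for each gene.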

How the data were processed

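RNA of each sample was hybridised to an Illumina bead array and exported with GenomeStudio 2011.1, per the submitters' processing notes. The deposited probe intensities were not normalized, and each came with a detection p-value per the file headers. A second deposited table gave the authors' processed values on a linear intensity scale that reaches below 0, and its background step and scaling are not given in the sources used here. Using limma 3.58.1 in R 4.3.3, the 7 muscle arrays were background corrected (normexp, negative controls inferred from detection p, offset 16), quantile normalized and log2 transformed. Probes with a detection p under 0.05 on at least 3 muscle arrays were kept, 11391 probes of 8101 genes. Of 25697 probes, 23978 had 1 gene symbol and 1719 none. The genotype difference was fitted with lmFit and eBayes and p-values were adjusted over all probes kept by the Benjamini-Hochberg method. Exact permutation tests over the 7 mice were two-sided on the mean difference. Tissue differences used all 22 arrays normalized together, within each mouse for brain and as an interaction for testis. One probe, that of the highest mean, stood for each gene in a list. "At least" folds set the brighter group against the lowest detected signal of each dim array.

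The members and the 32 gene lists and 14 marker lists were chosen with earlier results of these data known. Genes were named as Sgms1, Sgms2, Samd8, Adipoq, Ucp1 and Tnnt1, those past the threshold, those of the next smallest p to reach 30, up to 6 of smallest p per list, and 5 per tissue difference. Others were named after their values were seen. The fit was checked on simulated data. Alternatives varied the background step, offset, scaling, filter, eBayes options, array weights, probes per gene, a replicate block and each library left out, and 5 were added after seeing the data. The number of arrays limits the precision, and p-values measure the spread between these mice.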

Additional observations from a re-analysis of the deposited data

Results flagged for a closer look

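Of 83 named genes tested, 5 had a mutant library far from the other 3. Chance gives such a gap in about 1 of 20 groups, so this number is near what chance gives. Prkaa2 stood at 5.24 in mutant 3, against 5.49 to 5.54 in the other mutants. Nnat was at 5.42 in mutant 3, where the others ran from 4.30 to 4.44. Ucp3 was at 6.95 in mutant 1, below the 7.49 to 7.57 of the others. Akt2, a kinase of insulin signalling, was at 4.52 in mutant 2 and at 4.74 to 4.78 in the rest. Opa1, of mitochondrial fusion, was at 5.75 in mutant 1 and at 5.45 to 5.47 in the rest.

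Differences between tissues in the genotype effect also stood out by their own test. Against brain these were Lep (-2.48), Rbp7 (-1.39), Sncg (-2.13), Angptl4 (-1.70) and Hp (-1.40). Against testis they were Lep (-2.57), Cdsn (-2.53), Mmd (-1.84), Map4 (1.48), ILMN_2455192 (2.37) and ILMN_2449449 (2.08).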

How the results depend on the processing

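The count of 12 probes past the threshold in muscle depended on the processing. It was 7 with no background correction (28.6% higher), 37 with median scaling (18.9% higher, with the median of all probes at -0.05), 5 with all 22 arrays normalized together (60% higher), 4 with the authors' processed values, 4 with no detection filter, 28 with the trend and robust options, 22 with array weights and 6 with 1 probe per gene (33.3% higher). With the replicate block it was 35 (22.9% higher). Same-numbered mutants and wild types correlated at 0.015, 0.0748 and 0.1. The labels do not say whether same-numbered samples shared a processing step, and these correlations cannot settle it. Leaving out 1 library gave 8 to 22, with 19 without mutant 3, 21 without wild type 1 and 22 without wild type 3. Of the alternatives added after seeing the data, the Adipoq covariate gave 0 (445 at an unadjusted p under 0.05) and the Tnnt1 covariate 0 (803) by limma, the Tnnc1 covariate 5, the fit without the Ucp1-positive wild types 4, and the fit without mutants 1 and 2 7. For muscle against brain the count of 5 became 22 with no background correction, 4 with the replicate block, 0 to 6 when 1 mouse was left out, and 1 without the mice of brain wild type 3 and brain mutant 2. For muscle against testis the count of 6 became 10 with no background correction, 5 with the replicate block and 1 to 12 when 1 library was left out. Over 83 named genes, 1454 of 1565 planned refits and 364 of 411 added ones kept direction and side of the threshold. Most of these genes were not called in the main fit, so for them keeping the side means staying uncalled. A call of the main fit was lost in 46 planned and 39 added refits. Among the called genes, the refits that kept the call ran from 22 of 24 for Lep and Rbp7 to 7 of 24 for Bhlhe40. Direction turned for Samd8 (-0.0275 with median scaling, and from -0.0261 without wild type 2 to 0.1125 without wild type 1), for Cidec (0.16), Ormdl3 (0.25), Hspa5 (-0.0377), B2m (0.26), Igfbp4 (0.31), Ermp1 (0.0485) and Jph2 (-0.0725) with the Adipoq covariate, and for Sc5d (0.0034) with the Tnnt1 covariate; the cause was not tested. Array slides are not given in the tables, so a slide block was not run. With 4 against 3 mice no exact p below 0.0286 can occur.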

Other observations

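Single libraries stood apart for a few stress genes, named after their values were seen. Hspa1a, an inducible heat shock protein, stood at 6.41, 6.24, 9.87 and 7.28 in mutants and at 6.82, 7.34 and 7.34 in wild type. Mutant 3 alone was high. Hspb7, a small heat shock protein of muscle, had 8.37, 7.82, 7.42 and 7.67 in mutants and 7.58, 4.82 and 7.89 in wild type, so that wild type 2 alone was low. Atf4 was at 6.07 in mutant 4 and between 8.03 and 9.07 in the other libraries.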
